A study of Bos taurus with 16 samples.

Results

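The genes described here are 39 regulators and executors of mammary involution, chosen by name: cytokines of the interleukin 6 (IL-6) family with their receptors, the transcription factor STAT3 and its targets, transforming growth factor beta (TGF-beta), clusterin, matrix metalloproteinases with their tissue inhibitors, the plasminogen system, and genes of the mitochondrial and death receptor routes of cell death. The annotation of the array gives a probe set with exactly 1 symbol to 38 of the 39, among 18444 genes so named. CEBPB was not analysed here. MMP1 and TIMP2 have 2 probe sets each and are represented by the one with the higher mean over all arrays, and the other 36 have 1.

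The values come from needle biopsies of the mammary gland of 16 Parda de Montaña heifers, 1 Affymetrix array per heifer, taken when the calves of the first lactation were weaned. In their own first 6 months all 16 heifers suckled their dams for 30 min at a time. A starter concentrate was given in addition to 8 of them (CON) and dam's milk was the only feed of the other 8 (NOCON). From month 6 to month 15 all received alfalfa hay and concentrate at a forage to concentrate ratio of 67:33 or 87:13. Each ratio was given to equal numbers of both groups, but the ration of a single heifer is not in the labels, so this factor was not compared. Arrays are named by group and replicate number, for example CON 7.

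Involution is the regression of the mammary gland once milk is no longer removed. In the mouse, LIF released by the epithelium activates STAT3 through the shared receptor subunit IL6ST, STAT3 induces SOCS3, CEBPD and the receptor OSMR, and cell death follows. Proteases of the metalloproteinase and plasminogen families then break down the matrix around the alveoli, held in check by the TIMP proteins. In cattle the regression is slower and less complete than in rodents. All expression values below are on the log2 scale as deposited. Levels are placed against the array medians, and genes called bright, dim or well expressed are so by signal. Because each probe set has its own brightness, these terms do not rank genes by their amount of RNA.

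CON 2, CON 6, CON 7, NOCON 1 and NOCON 5 stood apart. Each had a median correlation with the others that was low by over 5 scaled median absolute deviations, the lowest being 0.866 in CON 7. They are called the low-correlation arrays below. CON 7 also had the narrowest interquartile range of expression, 1.49, against 1.68 to 2.15 in the other arrays. Of the 28 genes studied here whose mean lay above the mean of the array medians (4.32), 22 were lower in CON 7 than the mean of the other 15 arrays, and of the 10 at or below it, 10 were higher. Over all probe sets the corresponding shares were 66.0% and 80.0%. Differences were therefore computed also for the 11 arrays without these 5, and are plotted for all genes and given in the text where results turn on them (CON 1, 3, 4, 5 and 8, NOCON 2, 3, 4, 6, 7 and 8). Of 14 genes that mark the secretory epithelium, among them the caseins, 13 lay above the array medians, and the mean of these 14 genes was between 9.84 and 10.12 in CON and between 9.99 and 10.13 in NOCON. RNA quality values were not used here.

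**Figure D1:**
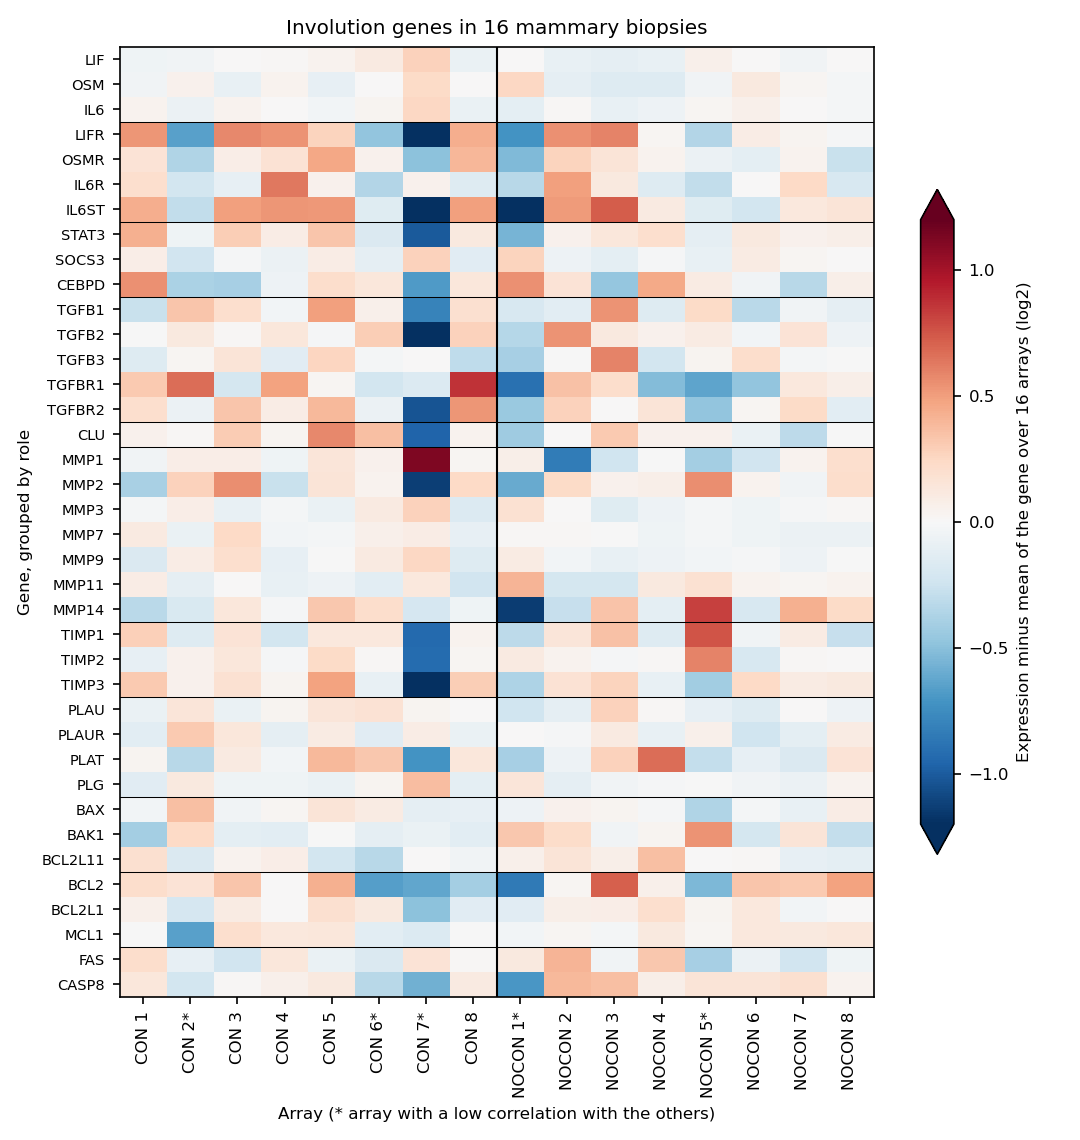
Heat map of expression minus each gene's mean over the 16 arrays (log2), with genes in rows grouped by role and arrays in columns. An asterisk marks the 5 arrays of low correlation. CON 7 stands out with low values of IL6ST (4.99), TIMP3 (8.19) and TGFB2 (6.38) and a high value of MMP1 (6.62).

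The feeding trial allows a test of whether concentrate before weaning goes with a difference in these genes at the end of the first lactation. The genes varied more between arrays than probe sets in general, with a median SD of 0.289 against 0.206 (0.168 against 0.124 in the 11 arrays). This comparison is not matched for level. Of the 38 genes 28 lay above the mean of the array medians, against 13438 of all 26773 probe sets. None of the 38 genes passed an adjusted p of 0.05 with limma, against 0.0598% of all 26773 probe sets. None had an unadjusted p below 0.05 either, against 8.67% of all probe sets. With the exact permutation test none passed after adjustment and 1, MMP1, had an unadjusted p below 0.05, which is 2.63% of the genes against 10.4% of all probe sets. Means were higher in CON for 19 genes, where 51.9% of all probe sets had a higher mean, and lower for 19, with a median difference of 0.0029, against 0.0058 over all probe sets. In 36 of the 38 the difference was smaller than 0.2 in size. The groups overlapped for every one of the 38 genes (0.176% of all probe sets had groups that do not overlap). The 95% intervals held 0 for all 38, and for 30 of them the whole interval lay within 0.5 of 0 on the log2 scale.

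**Figure D2:**
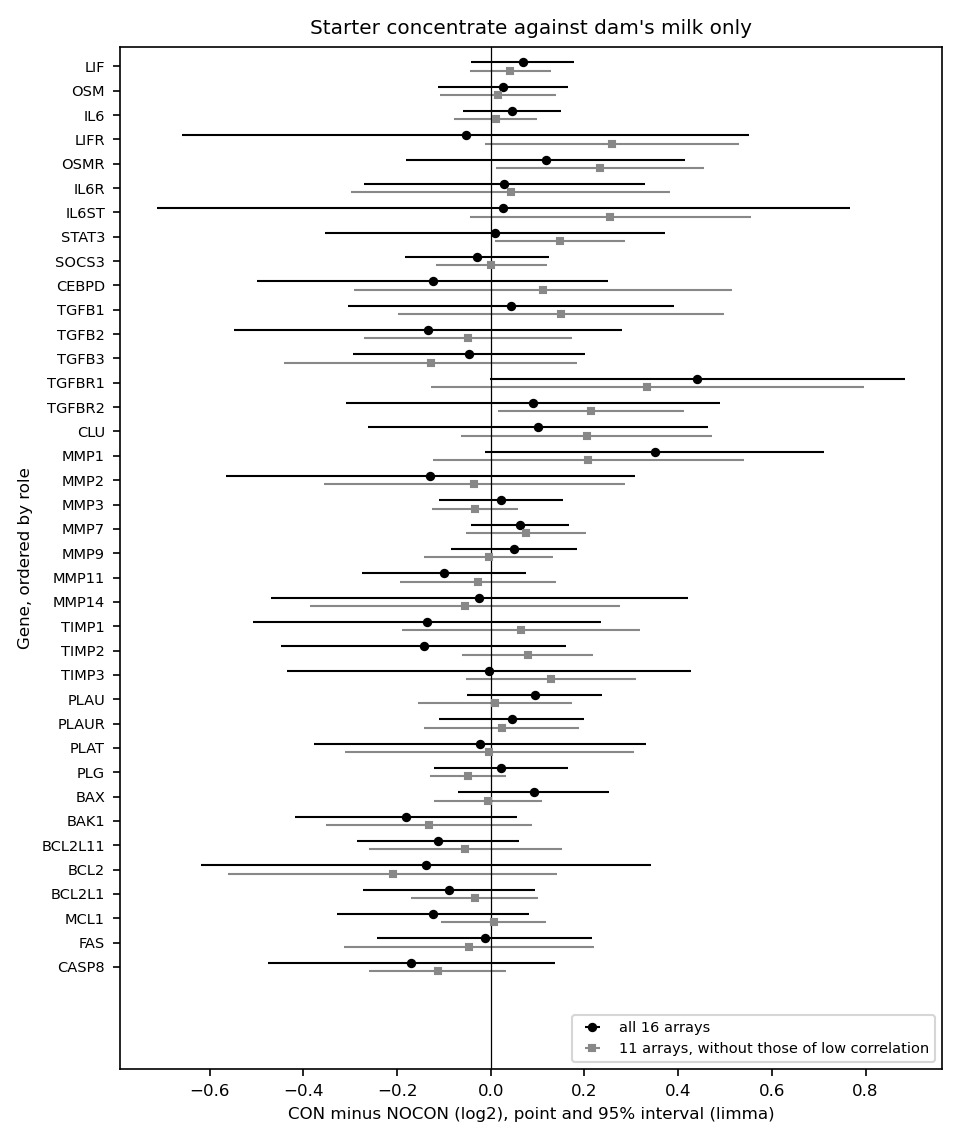
Difference CON minus NOCON (log2) for each of the 38 genes, with its 95% interval from limma. Black circles use all 16 arrays and grey squares the 11 arrays without those of low correlation. All black intervals reach across 0, and the bound farthest from 0 is the upper one of TGFBR1, 0.88.

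The ligands of the IL-6 family were dim on every array. LIF lay between 3.62 and 3.98 in CON (median 3.71) and between 3.60 and 3.76 in NOCON (median 3.68), below the array medians throughout. OSM, the ligand of OSMR, ran from 3.58 to 3.99 over both groups, and IL6 from 3.51 to 3.87. The highest LIF and IL6 values, 3.98 and 3.87, were both from CON 7, and the highest OSM value was from NOCON 1. The differences between the groups were 0.068 (95% interval -0.042 to 0.18) for LIF, 0.025 for OSM and 0.045 for IL6, with limma adjusted p from 0.672 to 0.905. Values this close to the lower end of the scale understate differences, so a low expression of these cytokines and its absence cannot be told apart here.

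Their receptors lay above the array medians and had the largest median SD over the arrays (0.44) of the 11 roles. IL6ST, the subunit that passes on the signal of LIF, OSM and IL-6, was at a median of 7.36 in CON (lowest 4.99, highest 7.43) and 7.02 in NOCON (lowest 5.51, highest 7.63). Its SD over the 16 arrays, 0.72, was the largest of the 38 genes, and the lowest value of each group came from CON 7 and NOCON 1. LIFR, which pairs with IL6ST to bind LIF, ranged from 5.11 to 7.13 in CON (median 6.91) and from 5.83 to 7.15 in NOCON (median 6.58), with the same 2 arrays lowest. OSMR ranged from 4.65 to 5.61 in CON (median 5.26) and from 4.62 to 5.41 in NOCON (median 5.13). The differences were 0.027 (95% interval -0.71 to 0.77) for IL6ST, -0.053 (interval -0.66 to 0.55) for LIFR, 0.12 (interval -0.18 to 0.42) for OSMR and 0.029 for IL6R, the binding subunit for IL-6. In a bulk biopsy fewer cells of a type and less RNA per cell cannot be told apart. Without the low-correlation arrays IL6ST lay between 7.33 and 7.43 in the 5 CON arrays and between 6.68 and 7.63 in the 6 NOCON arrays, a difference of 0.26 (limma adjusted p = 0.664). LIFR then differed by 0.26 (limma adjusted p = 0.607). The SD of IL6R was 0.31 in CON and 0.29 in NOCON with all arrays, and 0.32 and 0.26 in the 11 arrays.

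STAT3 was well expressed in all biopsies, from 6.72 to 8.14 in CON (median 7.82) and from 7.16 to 7.92 in NOCON (median 7.78). CON 7 and NOCON 1 were again the lowest arrays, and the other 14 lay between 7.55 and 8.14. The difference was 0.0093 (95% interval -0.35 to 0.37). SOCS3, the feedback inhibitor that STAT3 induces, stayed near or below the array medians, between 3.90 and 4.41 in CON (median 4.09) and between 4.02 and 4.40 in NOCON (median 4.13). Its 2 highest values came from CON 7 (4.41) and NOCON 1 (4.40), the arrays where STAT3 was lowest. OSM, MMP3 and PLG, which were dim too, had their 2 highest values in the same arrays. CEBPD, a transcription factor that acts in mouse involution downstream of STAT3, spread widely within both groups, from 5.10 to 6.32 in CON and from 5.32 to 6.33 in NOCON. CON 1 (6.32), NOCON 1 (6.33) and NOCON 4 (6.24) were the highest. SOCS3 differed by -0.029 and CEBPD by -0.12 between the groups, with limma adjusted p of 0.903 and 0.815.

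Of the TGF-beta genes, the type I receptor TGFBR1 (probe set 12889169) showed the largest difference of the 38. It lay between 5.45 and 6.54 in CON (median 5.83) and between 4.77 and 6.02 in NOCON (median 5.46). The 3 values above all of NOCON came from CON 2, CON 4 and CON 8, and 4 values below all of CON came from NOCON 1, 4, 5 and 6. CON averaged 5.89 ± 0.43 (SD, n = 8) and NOCON 5.44 ± 0.46 (SD, n = 8). The log2 difference of 0.44 (SE 0.21), or 1.36-fold, did not pass (limma adjusted p = 0.574), and the exact permutation p was 0.0685 (two-sided). Leaving out 1 array moved the difference between 0.34 and 0.52, and without the low-correlation arrays it was 0.33 (limma adjusted p = 0.73).

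TGFBR2, the type II receptor, reached from 6.46 (CON 7) to 8.03 (CON 8) in CON and from 7.02 to 7.77 in NOCON, a difference of 0.090. Of the ligands, TGFB3, the form induced early in mouse involution, was near the array medians, at a median of 4.55 in CON and 4.56 in NOCON, and its highest value was 5.15 in NOCON 3. TGFB1 was also highest in NOCON 3 (6.93), closely followed by CON 5 (6.88). TGFB2 lay between 7.39 and 8.27 in 15 arrays and at 6.38 in CON 7. The 3 ligands differed by 0.043 (TGFB1), -0.13 (TGFB2) and -0.046 (TGFB3) between the groups, with limma adjusted p from 0.82 to 0.94.

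CLU, which encodes the secreted chaperone clusterin and is a classic transcript of the regressing gland, was bright in all 16 biopsies. It ranged from 8.77 to 10.30 in CON (median 9.77) and from 9.30 to 10.05 in NOCON (median 9.73). The lowest arrays were CON 7 and NOCON 1, and the highest was CON 5. The difference was 0.10 (95% interval -0.26 to 0.46, limma adjusted p = 0.846). In the 11 arrays it was 0.20 (limma adjusted p = 0.71).

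Among the metalloproteinases, the gelatinase MMP2 and its membrane-bound activator MMP14 were clearly above the array medians. MMP2 ranged from 6.92 to 8.60 in CON (median 8.14) and from 7.44 to 8.60 in NOCON (median 8.10). MMP14 ranged from 5.72 to 6.37 in CON (median 6.01) and from 4.91 to 6.86 in NOCON (median 6.10). NOCON held both the lowest MMP14 value (NOCON 1) and the highest (NOCON 5), so that its SD was 0.59 against 0.22 in CON (n = 8 each). The differences were -0.13 for MMP2 and -0.025 for MMP14, both with 95% intervals that reach beyond 0.3 on either side of 0.

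MMP1, an interstitial collagenase, had the second largest difference. Probe set 12726701 lay between 5.45 and 6.62 in CON (median 5.57) and between 4.67 and 5.71 in NOCON (median 5.39). The highest value was from CON 7 and the lowest from NOCON 2, while the other 7 CON arrays lay between 5.45 and 5.65. CON averaged 5.68 ± 0.39 (SD, n = 8) and NOCON 5.33 ± 0.33 (SD, n = 8), a log2 difference of 0.35 (SE 0.17, limma adjusted p = 0.579). The exact permutation p was 0.049, or 0.476 after adjustment over all probe sets. Without CON 7 the difference was 0.22, and without the low-correlation arrays 0.21 (limma adjusted p = 0.77). The second MMP1 probe set, 12726411, was dim at a mean of 3.88, correlated with the first at r = 0.62 over the 16 arrays, and differed by 0.14 (limma adjusted p = 0.772). The stromelysins MMP3 and MMP11, matrilysin (MMP7) and the gelatinase MMP9 had means from 3.34 to 4.17, below the array medians, and differed by 0.021, -0.10, 0.062 and 0.049 in this order. MMP7 lay between 3.24 and 3.58 in CON (median 3.36) and between 3.27 and 3.36 in NOCON (median 3.30), with CON 3 highest (limma adjusted p = 0.681).

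The inhibitors TIMP1, TIMP2 and TIMP3 lay far above the array medians, and their groups overlapped. TIMP3, which is bound to the matrix, lay between 8.19 and 9.96 in CON (median 9.59) and between 9.06 and 9.74 in NOCON (median 9.58). TIMP1 lay between 6.04 and 7.26 in CON and between 6.66 and 7.73 in NOCON, and TIMP2 between 6.41 and 7.57 in CON and between 7.14 and 7.93 in NOCON. For all 3 the lowest value was from CON 7, and NOCON 5 held the highest of TIMP1 and TIMP2. Their differences were -0.14, -0.14 and -0.0036 in 16 arrays and 0.065, 0.079 and 0.13 in the 11 arrays, none of which passed (limma adjusted p from 0.74 to 0.996 in 16 arrays and from 0.737 to 0.937 in 11). The second TIMP2 probe set, 12766730, had a mean of 7.32 against 7.34 for the one used. It correlated with that one at r = 0.57 over the 16 arrays and differed by 0.0035 between the groups.

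The plasminogen system supplies plasmin, the main protease of bovine milk. Its tissue-type activator PLAT was above the array medians, between 5.11 and 6.22 in CON (median 5.90) and between 5.43 and 6.49 in NOCON (median 5.75), with NOCON 4 highest and CON 7 lowest. The urokinase PLAU was nearer to them and narrower, from 4.49 to 4.75 in CON (median 4.61) and from 4.33 to 4.85 in NOCON (median 4.50). Its highest value was from NOCON 3 and its lowest from NOCON 1. The urokinase receptor PLAUR had medians of 4.55 and 4.55. PLG, the precursor of plasmin, which the liver supplies to the blood, was dim, with medians of 3.61 and 3.64. The differences were -0.023 (PLAT), 0.093 (PLAU, 95% interval -0.050 to 0.24), 0.045 (PLAUR) and 0.021 (PLG), with limma adjusted p from 0.657 to 0.969.

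Of the cell death genes, the pore-forming protein BAK1 had the smallest p. It lay between 4.89 and 5.54 in CON (median 5.18) and between 5.01 and 5.84 in NOCON (median 5.39), highest in NOCON 5 and lowest in CON 1. The difference was -0.18 (SE 0.11, limma adjusted p = 0.625; -0.13 without the low-correlation arrays). BCL2L11, which encodes the death activator BIM, lay between 4.16 and 4.68 in CON (median 4.48) and between 4.38 and 4.85 in NOCON (median 4.53), a difference of -0.11 (limma adjusted p = 0.657). BAX, the other pore former, differed by 0.091, and its lowest value, 4.59, came from the array with the highest BAK1.

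The death inhibitors BCL2, BCL2L1 and MCL1 all had lower means in CON without passing. BCL2 varied most, from 4.67 to 5.76 in CON (median 5.41) and from 4.48 to 6.05 in NOCON (median 5.52), with NOCON 1 lowest and NOCON 3 highest, and differed by -0.14 (95% interval -0.62 to 0.34). MCL1 held to a narrow band of 5.50 to 5.67 in NOCON, while CON ran from 4.88 (CON 2) to 5.73 (CON 3). Its difference of -0.12 became 0.0059 without the low-correlation arrays, of which CON 2 is one. BCL2L1, the gene of BCL-xL, differed by -0.089. The death receptor FAS, near the array medians, differed by -0.013, and CASP8, the caspase it activates, by -0.17. CASP8 was lowest in NOCON 1 (4.87) and CON 7 (4.99), and without NOCON 1 its difference was -0.28 (limma adjusted p = 0.466).

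**Figure D3:**
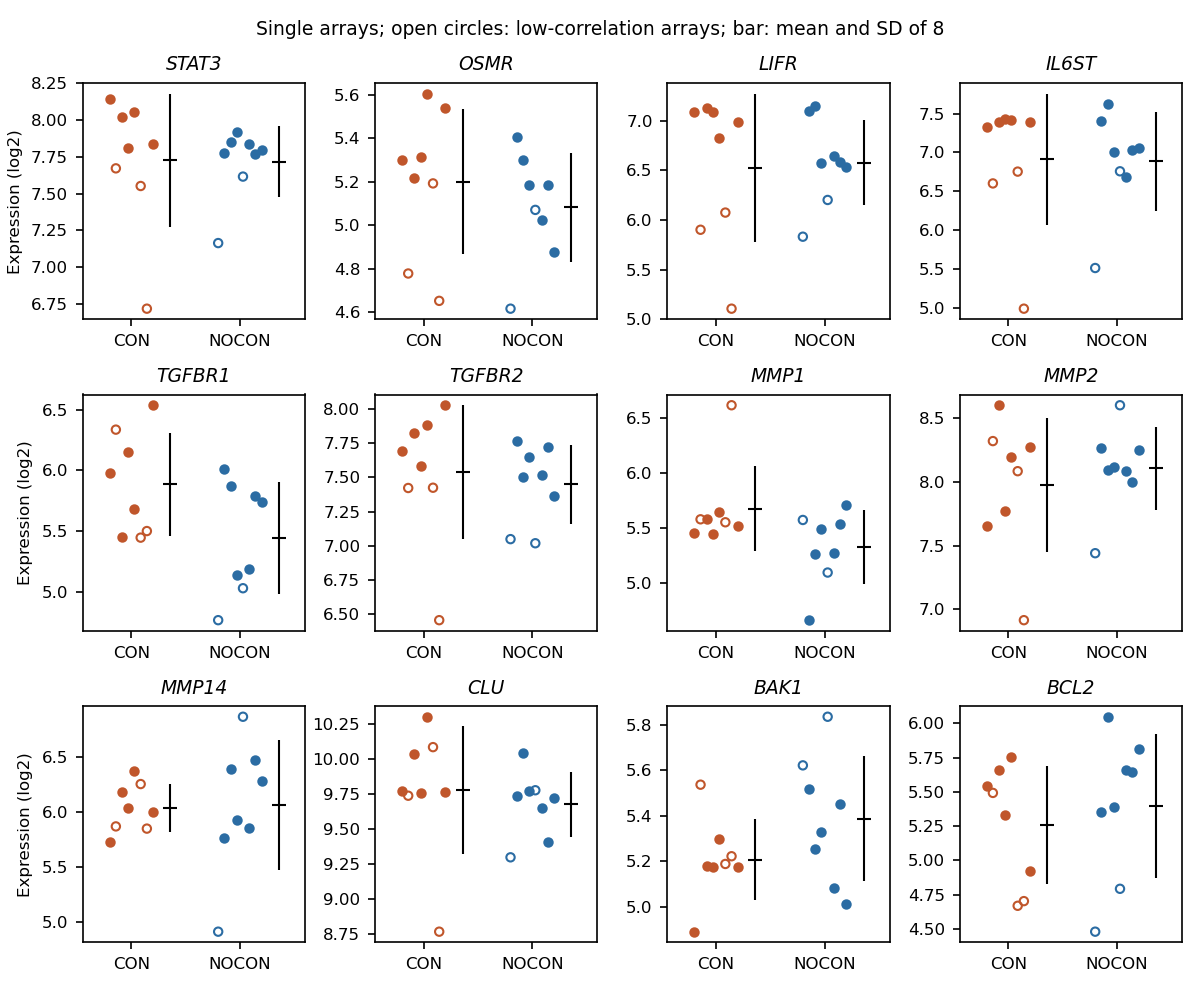
Expression (log2) of 12 of the genes on each array, by group, with the mean and SD of 8 arrays beside the points. Open circles are the low-correlation arrays, which hold the lowest values of STAT3, OSMR, LIFR, IL6ST and CLU in both groups. All filled points of CON sit above the median of the filled points of NOCON for OSMR (5.18) and IL6ST (7.04), and the filled points of the groups overlap.

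With the arrays that stood apart set aside, TGFBR2, STAT3 and OSMR had the smallest p of the 38 genes, each with the higher mean in CON. In the 11 remaining arrays 3 of the 38 genes had an unadjusted limma p below 0.05, 7.89% against 8.62% of all probe sets, and none passed (0.0859% of all probe sets did). STAT3 was at 7.97 ± 0.15 in CON (SD, n = 5) and 7.82 ± 0.058 in NOCON (SD, n = 6), a difference of 0.15 (limma adjusted p = 0.547). OSMR was at 5.40 ± 0.17 and 5.16 ± 0.19 (difference 0.23, limma adjusted p = 0.552). TGFBR2 was at 7.80 ± 0.17 and 7.59 ± 0.15 (difference 0.21, limma adjusted p = 0.539). The exact permutation p of the 3 genes ran from 0.0541 to 0.0671 (two-sided), and the 11 arrays allow 462 regroupings.

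Another fit kept all 16 arrays and took the first principal component of all probe sets as a covariate. This component held 54.4% of the variance and was farthest from 0 in CON 7. In this fit 8 of the 38 genes had an unadjusted limma p below 0.05, 21.1% against 14.2% of all probe sets, and all 8 had higher values in CON. They were IL6ST (0.40), TGFBR2 (0.28), OSMR (0.25), STAT3 (0.19), TGFBR1 (0.55), TIMP3 (0.20), CLU (0.25) and LIFR (0.25). None passed, with limma adjusted p from 0.144 to 0.328, while 0.164% of all probe sets did. In the fit without covariates these 8 differed by 0.027, 0.090, 0.12, 0.0093, 0.44, -0.0036, 0.10 and -0.053 in the same order. All 8 have means above the mean of the array medians. Of them IL6ST, TGFBR2, STAT3, TIMP3, CLU and LIFR were lowest in CON 7, while OSMR and TGFBR1 were not. The directions of all probe sets called in this fit, and a share matched for level, were not computed.

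Co-variation between heifers was examined for 20 pairs of genes, among them ligands or receptors with their signalling targets, the receptor subunits LIFR and IL6ST, proteases with their activators or inhibitors, and opposing cell death genes. Pearson's r passed an adjusted p of 0.05 for 5 of them over the 16 arrays (permutation test with 100000 resamples, two-sided, adjusted over the 20 pairs). The receptor subunits LIFR and IL6ST correlated most closely, with r = 0.93 (adjusted permutation p = 0.0002) and Spearman's rho = 0.90 (adjusted permutation p = 0.0004). The unadjusted p of r, 1e-05, is the smallest the resamples can give. Without CON 7 and NOCON 1, the arrays farthest from the LIFR median, r was 0.91. It was 0.95 within CON, 0.91 within NOCON and 0.83 in the 11 arrays (adjusted permutation p = 0.0378). Given the first principal component, the partial r was 0.56 and did not pass (adjusted permutation p = 0.233). Values of r near this size also occurred outside the 20 pairs. Over the 16 arrays examples were 0.91 for TIMP3 with STAT3 and with TGFBR2, and -0.92 for PLG with LIFR. In the 11 arrays BCL2 with TGFB3 and PLAU with TGFB1 were at 0.83. The share of other gene pairs that pass was not computed. It is therefore not known whether 5 of 20 is particular to the pairs chosen.

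The other 4 of the 5 pairs that passed lost their call when single arrays were left out. MMP2 and TIMP2, which meet in the activation of MMP2 at the cell surface, had r = 0.77 and rho = 0.65 (permutation p = 0.00173, adjusted 0.0115 for r and 0.0575), and r = 0.65 without CON 7 and NOCON 1. The call was lost without CON 7 or without NOCON 5, where r fell as low as 0.48. The second TIMP2 probe set was not run with MMP2. OSMR and STAT3 had r = 0.73 and rho = 0.61 (permutation p = 0.00077, adjusted 0.0077 for r and 0.0657), and the call was lost without CON 7 (adjusted permutation p = 0.0567). CLU and TIMP1 (r = 0.68, rho = 0.67) and TGFB1 and TIMP1 (r = 0.66, rho = 0.52) shared an adjusted permutation p of 0.0329 for r, lost without CON 7, NOCON 1 or NOCON 3. With the 2 arrays farthest from the median of the first-named gene left out, OSMR with STAT3 was at r = 0.45, CLU with TIMP1 at 0.41 and TGFB1 with TIMP1 at 0.30. In the 11 arrays none of the 4 passed, at r = 0.52 (MMP2 and TIMP2), 0.29 (OSMR and STAT3), 0.36 (CLU and TIMP1) and 0.44 (TGFB1 and TIMP1).

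**Figure D4:**
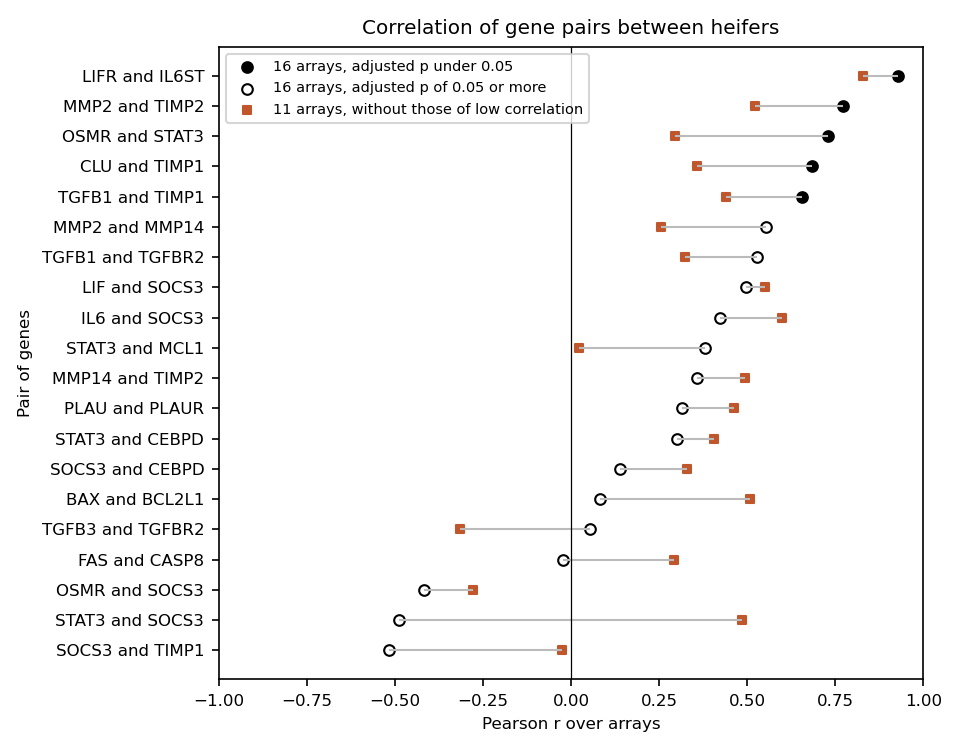
Pearson's r over arrays for the 20 gene pairs. Circles use all 16 arrays, filled where the adjusted p is under 0.05, and squares the 11 arrays without those of low correlation. LIFR with IL6ST moves from 0.93 in 16 arrays to 0.83 in 11, and STAT3 with SOCS3 from -0.49 to 0.49.

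The pair at the centre of the pathway, STAT3 and its target SOCS3, changed sign with the arrays used. Over all 16 arrays r was -0.49 (adjusted permutation p = 0.108) while rho was 0.0059. Without CON 7 and NOCON 1, r was 0.63 (unadjusted permutation p = 0.0155), and in the 11 arrays it was 0.49 (adjusted permutation p = 0.375). In the 11 arrays rho was 0.27, and r was 0.020 without the 2 of them farthest from the STAT3 median. With median centring of all 16 arrays r was -0.088, within CON -0.41 and within NOCON -0.71, and none of these passed. CON 7 and NOCON 1 have low STAT3 and high SOCS3. The other genes at or below the mean of the array medians also had negative r with STAT3 over the 16 arrays. These ran from -0.91 (PLG) to -0.074 (MMP7), so the sign over 16 arrays is not particular to SOCS3. The dim cytokines LIF and IL6 had r of 0.50 and 0.42 with SOCS3, and neither passed. Neither did the death genes: BAX with BCL2L1 had r = 0.082 and FAS with CASP8 r = -0.023.

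**Figure D5:**
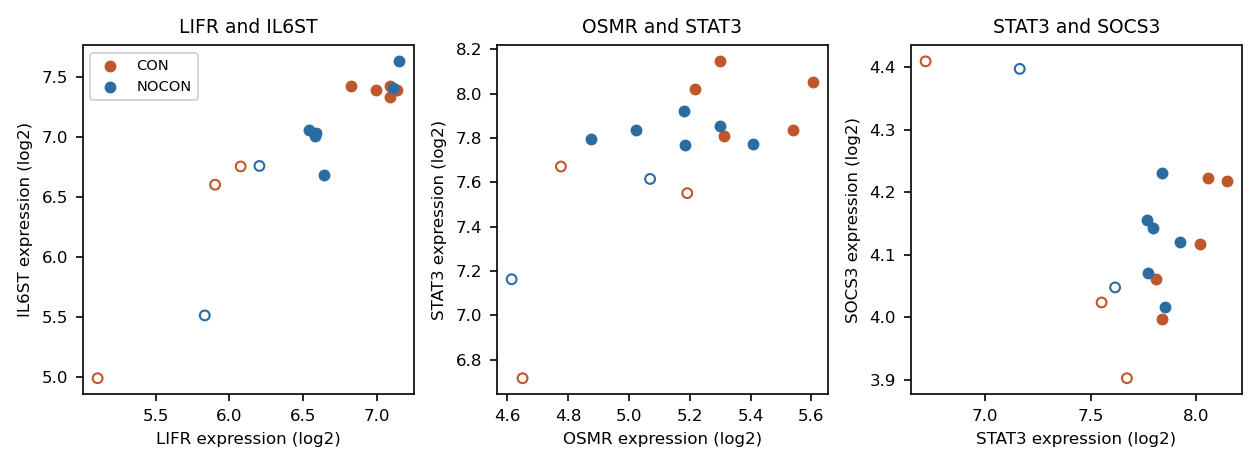
Expression (log2) of LIFR against IL6ST, OSMR against STAT3 and STAT3 against SOCS3, 1 point per array, coloured by group, with open circles for the low-correlation arrays. CON 7 and NOCON 1 lie at the low end of LIFR, OSMR and STAT3 and at the top of SOCS3 (4.41 and 4.40).

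Genes of one role correlated to different degrees. The mean pairwise r was 0.65 among the 4 IL-6 family receptors, 0.62 among the 3 TIMPs, 0.56 among the 3 dim ligands, 0.42 among the 3 death inhibitors and 0.36 among the 5 TGF-beta genes, against 0.035 over all 38 genes and 0.0085 over all named genes. It was 0.056 among the 7 metalloproteinases, 0.042 among the 4 plasminogen genes, -0.016 among STAT3, SOCS3 and CEBPD, -0.023 between FAS and CASP8 and -0.20 among the 3 death promoters. In the 11 arrays it was 0.52 for the receptors, 0.32 for the TIMPs, 0.48 for the ligands, 0.34 for the death inhibitors and 0.16 for the TGF-beta genes, against 0.045 over the 38 genes and 0.0021 over all named genes. It was higher there than in 16 arrays for STAT3, SOCS3 and CEBPD (0.41), the plasminogen genes (0.33), FAS with CASP8 (0.29), the metalloproteinases (0.14) and the death promoters (-0.071). These values are descriptive, since the pairs share the same arrays. They also go with level. Over the 16 arrays, 24 of the 28 genes above the mean of the array medians correlated positively with the interquartile range. All 10 genes at or below it correlated negatively. The receptors, TIMPs, death inhibitors, death promoters and TGF-beta genes all lay above it and the ligands all below. Of the death promoters, BAX (r = -0.066) and BAK1 (-0.16) did not correlate positively with the interquartile range, and BCL2L11 did (0.29). A background matched for level was not computed.

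The genes also varied with markers of the cell types that a biopsy can hold. Of 418 correlations between the 38 genes and 11 marker lists, 74 passed an adjusted permutation p of 0.05 over the 16 arrays, and none in the 11 arrays, where 35 had an unadjusted p below 0.05. The share of all genes that correlate with these lists was not computed. It is therefore not known whether the counts here and in the next paragraph are particular to the 38 genes. The endothelial list, with all 7 markers above the array medians, passed with 15 genes. Its mean level ran from 5.48 to 7.29 in CON and from 5.98 to 7.27 in NOCON, lowest in CON 7 and NOCON 1. IL6ST correlated with it at r = 0.94 and rho = 0.89 (permutation p = 1e-05, adjusted 0.00251), and at r = 0.80 without the 2 arrays farthest from its median and 0.69 in the 11 arrays. STAT3 did so at r = 0.87 and rho = 0.73 (permutation p = 0.00014, adjusted 0.00532), and at 0.52 and 0.17 with those arrays left out. CLU stood at r = 0.83 and rho = 0.61 (permutation p = 0.00026, adjusted 0.00543), and at 0.61 and 0.77. These 3 were chosen after their values were seen, and the part of cell composition in the results above was not tested.

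Of the other lists, that of myoepithelium and smooth muscle passed with 14 genes, fibroblasts with 6 and the secretory epithelium with 4 (TGFB1, MMP2 and TIMP1 in the same direction, MMP3 in the opposite one). Erythrocytes passed with 18 (5 in the same and 13 in the opposite direction), B and plasma cells with 6, skeletal muscle with 6 and neutrophils with 5, lists of which 0 of 3, 1 of 6, 1 of 5 and 2 of 6 measured markers lay above the array medians. With each array centred on its median the counts were 2 for erythrocytes, 0 for B and plasma cells, 2 for skeletal muscle, 1 for neutrophils, 15 for fibroblasts, 13 for endothelium, 13 for myoepithelium and smooth muscle, and 7 for the secretory epithelium. T and NK cells, macrophages and adipocytes passed with none on the values as deposited, although 3, 1 and 6 genes had an unadjusted permutation p below 0.05, and with 4, 0 and 3 after median centring.

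Further genes of the same pathways were measured for context, 122 of 134 listed. None passed (limma, smallest adjusted p = 0.419), and 11 had an unadjusted p below 0.05, 9.02% against 8.67% of all probe sets. Of these 11, 1 had a higher and 10 a lower mean in CON. Over all probe sets 955 with such a p were higher and 1365 lower. The median difference was -0.035 in 16 arrays and 0.0030 without the low-correlation arrays. In the group of cell death genes (36 measured), BAD, which opposes BCL2 and BCL-xL, averaged 4.95 ± 0.17 (SD, n = 8) for CON and 5.32 ± 0.29 (SD, n = 8) for NOCON, a difference of -0.37 (limma adjusted p = 0.419). CYCS, the cytochrome c that BAX and BAK1 release from mitochondria, averaged 5.37 ± 0.32 and 5.82 ± 0.29 (difference -0.45, limma adjusted p = 0.441). Without the low-correlation arrays they differed by -0.17 and -0.23.

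Of 17 further TGF-beta genes, the corepressor TGIF1 differed by -0.31 and the latent TGF-beta binding protein LTBP3 by 0.15, with limma adjusted p of 0.43 and 0.546, and by -0.27 and 0.16 in the 11 arrays. Of 22 further genes of JAK and STAT3 signalling, JUNB differed by -0.27 and the interleukin 11 receptor IL11RA by -0.20 (limma adjusted p = 0.484 and 0.536), and by -0.19 and -0.15 in the 11 arrays. Of 35 further proteases and inhibitors, the epithelial serine protease ST14 differed by -0.32 and ADAM8 by -0.18 (limma adjusted p = 0.553 and 0.574), and by -0.12 and -0.11 in the 11 arrays. Of 12 lysosomal proteases, calpains and their inhibitors, which take part in epithelial cell death in mouse involution, 11 had lower means in CON. Over all probe sets, 12874 of 26773 had lower means. The 12 genes had a median difference of -0.047, and none an unadjusted limma p below 0.05. Their median was 0.097 without the low-correlation arrays. The calpain CAPN2 differed by -0.29 and the cathepsin inhibitor CST3 by -0.11 (limma adjusted p = 0.626 and 0.677), and by -0.15 and -0.094 in the 11 arrays.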

How the data were processed

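Biotin-labelled RNA of 16 mammary biopsies was measured on Affymetrix arrays, 1 per heifer. The deposited log2 values were made with GCOS and RMA, per the submitters' processing notes, which name no version. The base of the logarithm is not stated and was read as log2 from the range of 2.725 to 12.657. RMA corrects background and normalizes between arrays, and dim or very bright probe sets understate differences. The number of arrays limits the precision. No pair of arrays was identical. Replicates are different heifers, so spread between heifers, biopsies and arrays cannot be separated.

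Groups came from the sample titles. All 26773 probe sets were tested with limma 3.58.1 in R 4.3.3 (lmFit, eBayes, no covariates, Benjamini-Hochberg over all probe sets, threshold 0.05) and with an exact two-sided permutation test over 12870 regroupings. Signed differences are CON minus NOCON. The limma step was tested on simulated data. Where a gene had several probe sets, the one of highest mean was used, and 37 of the 38 genes matched RefSeq (assembly ARS-UCD2.0) by gene ID and MMP3 by symbol. Correlations used 100000 resamples (Python 3.11.15, numpy 2.4.6), exact within groups of 8. Of 21 pairs listed, that with CEBPB was not run. The 11 marker lists were those for erythrocytes, skeletal muscle, adipocytes, macrophages, neutrophils, endothelium, B and plasma cells, fibroblasts, T and NK cells, secretory epithelium, and myoepithelium with smooth muscle. The genes, lists, pairs and tests were chosen with earlier results of these data known. Values per array are given for the 8 genes with the smallest p and the 6 with the largest SD, and for others that results turn on, chosen after their values were seen. Of the other pathway genes, the 2 with the smallest p per list are named.

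Alternatives were a filter for the brightest 60% of probe sets, quantile normalization, median centring, array weights, trend and robust options of eBayes, a block for the replicate number, a covariate for the first principal component, leaving out the low-correlation arrays together or each array in turn, averaging a gene's probe sets, the exact test and an adjusted p of 0.10. For correlations they were values centred within groups, each group alone, partial correlation and the same scalings. The comparison with interquartile range was added after seeing the data.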

Additional observations from a re-analysis of the deposited data

Results flagged for a closer look

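In 76 sets of 8 arrays (38 genes in each group), 18 single arrays stood farther from the rest of their group than the 95% critical value of Dixon's test for 8 samples allows, by the gap to the nearest array over the whole range. Chance alone would mark about 1 set in 20 if the sets were independent, but they share the same arrays. CON 7 accounted for 11 of the 18, NOCON 1 for 4, NOCON 5 for 2 and CON 2 for 1, and all 4 arrays are among those of low correlation. Dixon's test was not run on all probe sets. Of all probe sets above the mean of the array medians, 38.7% were lowest in CON 7, against 14 of the 28 genes there. Of those at or below it, 48.4% were highest in CON 7, against 6 of the 10 genes. The nearest other array of the group is given beside each log2 value.

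CON 7 was the lowest CON array for IL6ST (4.99, next 6.601), STAT3 (6.72, next 7.55), TGFB2 (6.38, next 7.71), TGFBR2 (6.46, next 7.42), CLU (8.77, next 9.74), TIMP1 (6.04, next 6.76), TIMP2 (6.41, next 7.24) and TIMP3 (8.19, next 9.39). It was the highest CON array for OSM (3.97, next 3.79), IL6 (3.87, next 3.66) and MMP1 (6.62, next 5.65). The genes low in CON 7 have means above the array medians, while OSM and IL6 lie below them. MMP1, highest in CON 7, has a mean of 5.50, above them.

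NOCON 1 was the lowest NOCON array for IL6ST (5.51, next 6.68), STAT3 (7.16, next 7.62) and CASP8 (4.87, next 5.61), and the highest for MMP9 (3.94, next 3.83). NOCON 5 was highest for TIMP2 (7.93, next 7.44) and lowest for BAX (4.59, next 4.86). CON 2 was lowest for MCL1 (4.88, next 5.37).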

How the results depend on the processing

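No alternative moved the count of 0 genes past an adjusted p of 0.05: not the filter (31 genes kept), trend and robust eBayes, array weights, the scalings, the replicate block, the principal component, the fits without arrays, the mean of probe sets, the exact test or an adjusted p of 0.10. With an unadjusted limma p below 0.05 there were 0 genes in the analysis reported and 8 at most (first principal component), and 0 to 3 with 1 array left out. The replicate numbers are not stated to pair heifers, 2 of 8 same-numbered pairs had correlated deviations above 0.1, and 2 of 16 arrays correlated best with their own number. With the replicate block 0 of the genes and 4 probe sets passed, against 16 without it, and MMP1 and TGFBR1 had an unadjusted p below 0.05. The cause of these shifts was not tested. Arrays carry no depth, and signal over background was not assessed, which limits LIF, OSM, IL6, MMP3, MMP7, MMP9 and PLG most.

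Of 335 differences under alternatives that leave out no single array, 39 had the opposite sign, none past the threshold. With quantile normalization they were OSM -0.019, IL6 -0.0052, MMP3 -0.030, MMP14 0.078, TIMP3 0.076 and PLG -0.028. With the first principal component they were OSM -0.023, LIFR 0.25, TGFB2 0.046, MMP2 0.026, MMP3 -0.035, MMP14 0.057, TIMP3 0.20, PLAT 0.10, PLG -0.045 and BCL2 0.011. With array weights they were LIFR 0.29, CEBPD 0.038, MMP3 -0.025, TIMP1 0.041, TIMP2 0.023, TIMP3 0.14, PLAT 0.019, PLG -0.040 and FAS 0.0007. Without the low-correlation arrays they were LIFR 0.26, SOCS3 0.0005, CEBPD 0.11, MMP3 -0.034, MMP9 -0.0047, TIMP1 0.065, TIMP2 0.079, TIMP3 0.13, PLG -0.048, BAX -0.0059 and MCL1 0.0059. With median centring they were STAT3 -0.016, MMP3 -0.0036 and PLG -0.004. With 1 array left out, 22 genes kept their sign in all 16 fits. The others ran over -0.0058 to 0.063 (OSM), -0.16 to 0.15 (LIFR), -0.060 to 0.10 (IL6R), -0.17 to 0.30 (IL6ST), -0.070 to 0.15 (STAT3), -0.070 to 0.0069 (SOCS3), -0.024 to 0.16 (TGFB1), -0.19 to 0.050 (TGFB2), -0.11 to 0.035 (TGFB3), -0.22 to 0.023 (MMP2), -0.016 to 0.049 (MMP3), -0.19 to 0.090 (MMP14), -0.072 to 0.18 (TIMP3), -0.082 to 0.077 (PLAT), -0.030 to 0.044 (PLG) and -0.072 to 0.044 (FAS).

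The 5 pair correlations that passed became 1 without the low-correlation arrays, 1 with quantile normalization, 1 within CON, 1 within NOCON and 0 as partial correlations, and 1 to 8 with 1 array left out. The 74 correlations with marker lists became 0 without the low-correlation arrays and 12 with quantile normalization. Fewer arrays lower the power of the tests without the low-correlation arrays, within the groups and with 1 array left out. Quantile normalization and the partial correlations kept all arrays but changed the values themselves, so their counts do not bear on power. What caused these changes was not tested. Some pair correlations, none past the threshold, changed sign. Without the low-correlation arrays they were 0.49 for STAT3 with SOCS3, -0.32 for TGFB3 with TGFBR2 and 0.29 for FAS with CASP8. With quantile normalization they were 0.038 for STAT3 with SOCS3, -0.10 for STAT3 with MCL1 and 0.12 for FAS with CASP8. With median centring they were -0.044 for IL6 with SOCS3 and 0.19 for FAS with CASP8. Within NOCON they were -0.26 for IL6 with SOCS3, -0.50 for STAT3 with CEBPD and -0.15 for TGFB1 with TGFBR2. Within CON they were -0.14 for SOCS3 with CEBPD, -0.077 for TGFB3 with TGFBR2 and 0.012 for FAS with CASP8. As partial correlations given the first principal component they were -0.25 for STAT3 with MCL1, -0.26 for TGFB3 with TGFBR2 and 0.11 for FAS with CASP8. With 1 array left out, r ran over -0.081 to 0.55 for SOCS3 with CEBPD, -0.14 to 0.57 for STAT3 with CEBPD, -0.097 to 0.21 for TGFB3 with TGFBR2, -0.093 to 0.38 for BAX with BCL2L1 and -0.24 to 0.095 for FAS with CASP8.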
